A study of Mus musculus with 120 samples.

Results

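The genes described here are 10 regulators and targets of the transcriptional coactivators YAP and TAZ and of their DNA-binding partners, the TEAD factors. They are Cyr61, Ctgf, Ankrd1, Amotl2, Vgll4, Tead1, Tead2, Yap1, Wwtr1 and Lats2, found by name as 10 of the 48371 gene symbols in the expression table. The group was chosen by measured values, since Cyr61 and Vgll4 stood out in an earlier look at the same cells, so the genotype values of its members are given as a description and support no test. The cells were dissociated from endolymphatic sacs, a fluid-filled part of the inner ear, of E14.5 mouse embryos, and the RNA of each was sequenced along its full length with Smart-seq2. There were 62 cells from Sox9Y440X/+ sacs, which carry 1 Sox9 allele named for a stop codon in place of a tyrosine, and 58 cells from Wild-type sacs. The labels name no animal or litter behind any cell, so each genotype counted as 1 sample and no value below has a replicate error.

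In the Hippo pathway, a kinase cascade ending in LATS1 and LATS2 phosphorylates YAP and TAZ and keeps them out of the nucleus. When the cascade is quiet, YAP and TAZ bind TEAD factors and switch on genes such as Cyr61, Ctgf and Ankrd1, while VGLL4 competes for the TEAD surface and angiomotins such as AMOTL2 tether YAP at junctions. Cell shape, tension and contact feed into this balance, and Cyr61 and Ctgf are also known to be induced quickly by serum, stress and tissue dissociation.

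Values are FPKM, which scale fragments to transcript length and to the fragments of a cell, so levels of different genes can be set side by side. A gene was called detected in a cell at an FPKM of at least 1. Groups were compared by the mean of log2(FPKM + 1) over cells, and a difference of at least 1 on that scale was counted as higher or lower. A value of 0 can be a failed estimate, so a gene at 0 is called listed at 0 or not detected, never absent. Clusters were made without the 10 genes and named by markers. The 115 cells with at least 1000 genes gave 37 Sox9Y440X/+ and 56 Wild-type epithelium-like cells, and 21 Sox9Y440X/+ and 1 Wild-type connective cells, which carried mesenchyme markers and are called mesenchyme-like. The Sox9Y440X/+ mesenchyme-like cells had a median of 0 of 16 epithelium markers and at most 2, against medians of 13 in Sox9Y440X/+ and 11 in Wild-type epithelium-like cells. Of the 21 Sox9Y440X/+ mesenchyme-like cells, 1 had 10 of 11 endothelium markers and 1 of 16 mesenchyme markers. The Cyr61 difference and the highest co-variation values in connective cells are therefore also given without it. The other connective values include it, and small differences among them may change without it. The median number of genes per cell, as the labels give it, was 3593 in Sox9Y440X/+ mesenchyme-like cells, 4506 in Sox9Y440X/+ epithelium-like cells and 3241.5 in Wild-type epithelium-like cells.

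Promoter sequence is shown for 4 members because TEAD factors bind a known core, GGAATG, and the members with large or linked differences can be inspected for it. RefSeq (GRCm38.p6) gave windows for 8 of the 10 members, Cyr61 being listed there as Ccn1. Ctgf and Tead1 were not matched. Printed are the 250 bases before the transcript start, 5′ to 3′ on the strand of the gene, with the core in capitals, which reads CATTCC where it lies on the opposite strand. Cyr61 is shown as the member with the largest genotype difference (chr3:145649986-145650235, minus strand). Amotl2 is shown for its rank correlation with Cyr61, 0.34 over all Sox9Y440X/+ epithelium-like and 0.43 over all Sox9Y440X/+ mesenchyme-like cells (chr9:102717554-102717803, plus strand). Vgll4 is shown as the higher antagonist (chr6:114969204-114969453, minus strand), and Ankrd1 as the target detected in the fewest cells (chr19:36119845-36120094, minus strand).
Cyr61: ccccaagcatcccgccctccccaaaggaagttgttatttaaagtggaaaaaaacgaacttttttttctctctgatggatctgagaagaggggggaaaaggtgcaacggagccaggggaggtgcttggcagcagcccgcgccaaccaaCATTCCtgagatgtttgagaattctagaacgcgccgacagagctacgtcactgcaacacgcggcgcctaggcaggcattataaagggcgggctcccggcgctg
Amotl2: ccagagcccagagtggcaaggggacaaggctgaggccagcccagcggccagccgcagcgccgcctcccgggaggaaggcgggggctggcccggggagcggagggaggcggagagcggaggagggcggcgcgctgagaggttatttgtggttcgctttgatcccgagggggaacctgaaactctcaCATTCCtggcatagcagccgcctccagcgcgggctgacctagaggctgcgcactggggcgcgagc
Vgll4: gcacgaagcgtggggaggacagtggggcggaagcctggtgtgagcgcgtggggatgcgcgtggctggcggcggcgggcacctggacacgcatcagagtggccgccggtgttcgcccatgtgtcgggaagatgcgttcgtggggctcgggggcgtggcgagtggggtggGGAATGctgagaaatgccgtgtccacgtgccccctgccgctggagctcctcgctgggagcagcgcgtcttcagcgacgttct
Ankrd1: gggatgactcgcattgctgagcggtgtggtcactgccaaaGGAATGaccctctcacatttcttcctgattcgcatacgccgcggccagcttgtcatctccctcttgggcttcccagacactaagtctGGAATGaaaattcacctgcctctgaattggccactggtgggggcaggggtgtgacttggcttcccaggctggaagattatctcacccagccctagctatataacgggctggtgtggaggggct
The core occurred on either strand in 7 of the 8 members with a window, Tead2 being the exception, against 14.7% of 32851 windows and 16.6% of 27025 genes in the same table. In Cyr61 it lay 103 to 98 bases before the start on the opposite strand, and in Amotl2 65 to 60 bases before it, also on the opposite strand. Vgll4 held it 82 to 77 bases before the start, and Ankrd1 held it at 2 places. The AP-1 motif TGANTCA was in none of the 8 members, against 7.81% of windows, and the CArG box that SRF binds was in none, against 1.63% of windows. These are matches of letters in a window of 300 bases, 250 before and 50 after the start, and do not show binding.

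**Figure D1:**
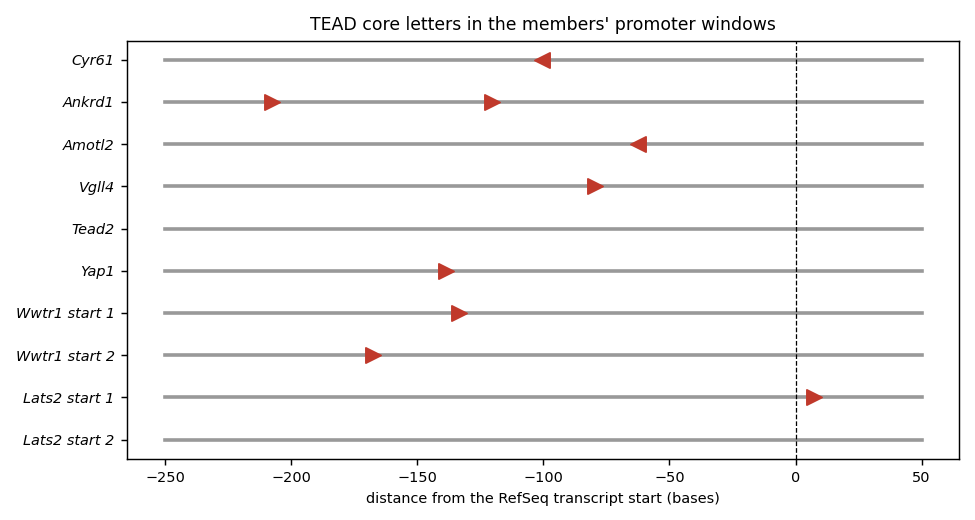
Matches of the TEAD core in the RefSeq promoter windows of 8 members, by distance from the transcript start in bases; each grey line is 1 window, and triangles point right for the strand of the gene and left for the opposite strand. The 7 members with a match carry it between 210 bases before and 10 bases after the start, and Tead2 has none.

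Cyr61 (ENSMUSG00000028195.4, GRCm38 chromosome 3, 145646976 to 145649981, minus strand), also called CCN1, encodes a secreted matrix-associated protein and is among the most used readouts of YAP and TEAD. It had the largest genotype difference of the 10 genes in the epithelium. Its FPKM ranged from 0 to 3057 with a median of 203 in Sox9Y440X/+ epithelium-like cells, against 0 to 666 with a median of 0 in Wild-type epithelium-like cells. The groups overlapped: 8 of the 37 Sox9Y440X/+ cells lay above every Wild-type cell, and 9 of the 56 Wild-type cells lay above the Sox9Y440X/+ median. Cyr61 was detected in 27 of 37 Sox9Y440X/+ cells (73.0%, exact Clopper-Pearson 95% interval 55.9% to 86.2%) and in 26 of 56 Wild-type cells (46.4%, 32.99% to 60.3%). These intervals cover counting error only. Among cells in which it was detected, its median was 389 FPKM in Sox9Y440X/+ and 127 FPKM in Wild-type cells, so both the share of cells and the level per positive cell were higher. Mean log2(FPKM + 1) was 6.35 (SD 4.08 over 37 cells) in Sox9Y440X/+ and 2.90 (SD 3.46 over 56 cells) in Wild-type cells, a difference of 3.46. This lay at percentile 99.98 of the 5957 genes that passed a limit on detection, set at 25% of cells in either genotype.

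In the connective cells Cyr61 was found nearly throughout. Its FPKM ranged from 0 to 557 with a median of 148 in the 21 Sox9Y440X/+ mesenchyme-like cells, 19 of which had it (90.5%, 69.6% to 98.8%). The single Wild-type mesenchyme-like cell was at 74.4 FPKM. The mean log2(FPKM + 1) of 6.52 in the Sox9Y440X/+ mesenchyme-like cells was next to the 6.35 of the Sox9Y440X/+ epithelium-like cells, a difference of 0.17, well inside the spread over cells. The mean FPKM ran the other way, 203 in the mesenchyme-like and 509 in the epithelium-like cells. The epithelial values reached higher, up to 3057 FPKM, and Cyr61 was not detected in 2 of 21 connective cells, against 10 of 37 epithelial cells. The direction therefore depends on the scale, and without the cell with endothelium markers the log2 difference was 0.38.

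Ctgf (ENSMUSG00000019997.11, GRCm38 chromosome 10, 24595442 to 24598683, plus strand), or CCN2, is the closest relative of Cyr61 among the members and is likewise a secreted matricellular protein. In the epithelium it was sparse in both genotypes: 7 of 37 Sox9Y440X/+ cells had it, with a highest value of 113 FPKM, against 8 of 56 Wild-type cells, with a highest value of 249.6 FPKM. Its mean FPKM was 7.70 in Sox9Y440X/+ and 8.90 in Wild-type cells, and 1 Wild-type cell held 50.1% of the Wild-type total. The difference of mean log2(FPKM + 1) was 0.15. In the Sox9Y440X/+ connective cells Ctgf was detected in 8 of 21 cells, up to 111 FPKM, with a mean log2(FPKM + 1) of 2.12 against 0.85 in the Sox9Y440X/+ epithelium, a difference of 1.27. It was listed at 0 in the Wild-type mesenchyme-like cell.

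Ankrd1 (ENSMUSG00000024803.8, GRCm38 chromosome 19, 36111961 to 36120099, minus strand), which encodes an ankyrin-repeat protein of the nucleus and the sarcomere and is a strong YAP target in many cell types, was rarely detected. A single Sox9Y440X/+ epithelium-like cell had it, at 46.6 FPKM, and 0 of 56 Wild-type epithelium-like cells did. The count of 0 allows a share of cells at 1 FPKM or more of up to 5.36%, taken as 3 of 56 cells, or 6.38% by the exact interval, and sets no limit on the cells that express the gene. In the Sox9Y440X/+ connective cells 1 of 21 had it, at 9.24 FPKM.

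Amotl2 (ENSMUSG00000032531.15, GRCm38 chromosome 9, 102716672 to 102733418, plus strand) encodes a junctional angiomotin that restrains YAP and is itself switched on by YAP and TEAD. Its FPKM ranged from 0 to 152 with a median of 10.996 in Sox9Y440X/+ epithelium-like cells, against 0 to 132 with a median of 0 in Wild-type epithelium-like cells. Detection reached 22 of 37 Sox9Y440X/+ and 13 of 56 Wild-type cells. Mean log2(FPKM + 1) was 2.70 in Sox9Y440X/+ and 1.18 in Wild-type cells, a difference of 1.52. The ranges overlapped almost entirely, and in cells that had it the median was 24.5 FPKM in Sox9Y440X/+ and 34.4 FPKM in Wild-type cells. The difference thus lay in the share of cells in which Amotl2 was detected. As the log2 ratio of mean FPKM it was 0.94. In the Sox9Y440X/+ mesenchyme-like cells 9 of 21 had Amotl2, with a mean log2(FPKM + 1) of 2.14, lower than in the Sox9Y440X/+ epithelium by 0.56.

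**Figure D2:**
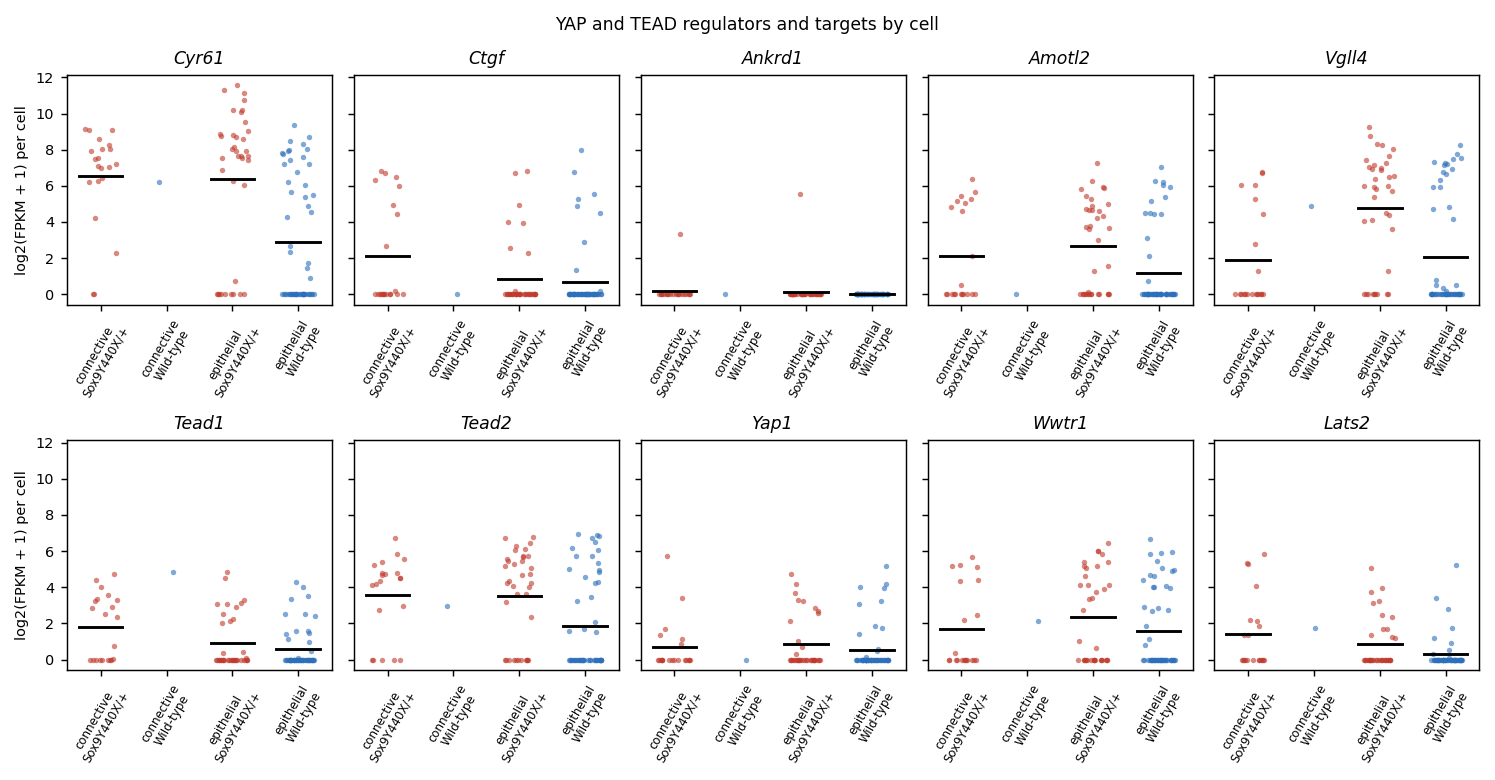
Log2(FPKM + 1) of the 10 members in each cell, for the 21 Sox9Y440X/+ and 1 Wild-type mesenchyme-like (connective) cells and the 37 Sox9Y440X/+ and 56 Wild-type epithelium-like cells; points are cells and black bars are group means. Cyr61 and Vgll4 have the widest gaps between the epithelial genotypes, with means of 6.35 against 2.90 and of 4.76 against 2.05, and cells at 0 occur in every panel.

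Vgll4 (ENSMUSG00000030315.15, GRCm38 chromosome 6, 114860628 to 114969994, minus strand) encodes a vestigial-like protein that displaces YAP from TEAD factors, and it had the next largest genotype difference among the members. Its FPKM ranged from 0 to 602 with a median of 60.2 in Sox9Y440X/+ epithelium-like cells, against 0 to 305 with a median of 0 in Wild-type epithelium-like cells. It was detected in 28 of 37 Sox9Y440X/+ cells (75.7%, 58.8% to 88.2%) and in 17 of 56 Wild-type cells (30.4%, 18.8% to 44.1%). Mean log2(FPKM + 1) was 4.76 (SD 3.13 over 37 cells) in Sox9Y440X/+ and 2.05 (SD 3.10 over 56 cells) in Wild-type cells, a difference of 2.71. Only 3 Sox9Y440X/+ cells exceeded the highest Wild-type cell. In cells at 1 FPKM or more the median was 90.6 FPKM in Sox9Y440X/+ and 121 FPKM in Wild-type cells, and with a limit of 0.1 FPKM, which adds 5 Wild-type cells, it was 90.6 FPKM in Sox9Y440X/+ and 88.8 FPKM in Wild-type cells. The order of the levels in positive cells thus depended on the limit, while for Cyr61 the Sox9Y440X/+ median was the higher at both limits. In the connective cells Vgll4 was low: 8 of 21 Sox9Y440X/+ mesenchyme-like cells had it, up to 109 FPKM, and their mean log2(FPKM + 1) of 1.87 was lower than in the Sox9Y440X/+ epithelium by 2.89. The Wild-type mesenchyme-like cell was at 28.7 FPKM.

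The TEAD factors are the DNA-binding members of the complex. By mean FPKM, Tead2 (ENSMUSG00000030796.17, GRCm38 chromosome 7, 45215753 to 45233644, plus strand) was more abundant than Tead1 (ENSMUSG00000055320.17, GRCm38 chromosome 7, 112679318 to 112906807, plus strand) in Sox9Y440X/+ epithelium-like cells (29.03 and 2.78), in Wild-type epithelium-like cells (17.98 and 1.37) and in Sox9Y440X/+ mesenchyme-like cells (23.8 and 5.76). Tead2 ranged from 0 to 108 FPKM with a median of 17.9 in Sox9Y440X/+ epithelium-like cells, against 0 to 124 FPKM with a median of 0 in Wild-type epithelium-like cells. In all, 26 of 37 Sox9Y440X/+ and 22 of 56 Wild-type cells had it. Mean log2(FPKM + 1) was 3.53 in Sox9Y440X/+ and 1.86 in Wild-type cells, a difference of 1.67. No Sox9Y440X/+ cell exceeded the highest Wild-type cell. In the Sox9Y440X/+ connective cells it was detected in 16 of 21 cells with a median of 22.2 FPKM, and its mean log2(FPKM + 1) of 3.58 differed from that of the Sox9Y440X/+ epithelium by 0.05. Tead1 was detected in 11 of 37 Sox9Y440X/+ and 12 of 56 Wild-type epithelium-like cells, with a highest value of 27.2 FPKM in Sox9Y440X/+ and 18.6 FPKM in Wild-type cells and a difference of 0.38. It was found in 11 of the 21 Sox9Y440X/+ connective cells, where it was higher than in the Sox9Y440X/+ epithelium by 0.88, and stood at 28.1 FPKM in the Wild-type mesenchyme-like cell.

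The coactivators themselves differed by less than 1 between the genotypes. Yap1 (ENSMUSG00000053110.13, GRCm38 chromosome 9, 7931999 to 8004596, minus strand) was detected in 10 of 37 Sox9Y440X/+ and 9 of 56 Wild-type epithelium-like cells, with highest values of 25.8 FPKM in Sox9Y440X/+ and 34.7 FPKM in Wild-type cells and a difference of 0.32. Wwtr1 (ENSMUSG00000027803.14, GRCm38 chromosome 3, 57455649 to 57575910, minus strand), the gene of TAZ, was found more often, in 19 of 37 Sox9Y440X/+ and 21 of 56 Wild-type cells, with highest values of 85.1 FPKM in Sox9Y440X/+ and 103 FPKM in Wild-type cells and a difference of 0.74. For both, the Wild-type cells reached as high as the Sox9Y440X/+ cells. Either coactivator was present in 20 of 37 Sox9Y440X/+ (54.1%, 36.9% to 70.5%) and 27 of 56 Wild-type (48.2%, 34.7% to 61.97%) epithelium-like cells, and in 9 of 21 Sox9Y440X/+ mesenchyme-like cells. The connective cells had Yap1 in 5 and Wwtr1 in 8 of 21, lower than the Sox9Y440X/+ epithelium by 0.17 and 0.67 in mean log2(FPKM + 1), and 1 cell at 52.7 FPKM held 77.4% of their Yap1.

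Lats2 (ENSMUSG00000021959.15, GRCm38 chromosome 14, 57689662 to 57758388, minus strand) encodes a kinase that phosphorylates YAP and TAZ, and is itself a YAP target in a feedback loop. It was low in all groups. In the epithelium 12 of 37 Sox9Y440X/+ and 5 of 56 Wild-type cells had it, with highest values of 31.9 FPKM in Sox9Y440X/+ and 36.6 FPKM in Wild-type cells and a difference of 0.55. In the Sox9Y440X/+ connective cells it was detected in 9 of 21 and reached 56.2 FPKM, higher than in the Sox9Y440X/+ epithelium by 0.56.

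By mean FPKM the order in Sox9Y440X/+ epithelium-like cells was Cyr61 (509), Vgll4 (102), Tead2 (29.03), Amotl2 (19.9), Wwtr1 (15.7), Ctgf (7.70), Tead1 (2.78), Yap1 (2.54), Lats2 (2.49) and Ankrd1 (1.26). In Wild-type epithelium-like cells it was Cyr61 (72.9), Vgll4 (37.1), Tead2 (17.98), Amotl2 (10.3), Wwtr1 (10.2), Ctgf (8.90), Yap1 (1.89), Tead1 (1.37) and Lats2 (1.03), with Ankrd1 listed at 0. The order was the same for the 6 leading genes. On the log2 scale, the means of all neighbours in both orders lay within 1 SD over cells of each other.

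Read over the whole group, all 10 members had a mean log2(FPKM + 1) above the Wild-type value in Sox9Y440X/+ epithelium-like cells, with a median difference of 0.64. The same held for 72.8% of the 5957 genes compared, whose median difference was 0.36, and the Sox9Y440X/+ cells also had more genes per cell. Of the 10 members, 8 passed the limit of 25% of cells, Ctgf and Ankrd1 being the exceptions. Cyr61, Vgll4, Tead2 and Amotl2 were higher by at least 1 and 0 members were lower by as much, against 13.5% of the genes compared that were higher and 2.20% that were lower. The members were chosen on this contrast, so their count carries no weight of its own. Which members passed 1 depended on the scale: by the log2 ratio of mean FPKM they were Cyr61 (2.80), Vgll4 (1.45), Lats2 (1.27) and Tead1 (1.01), while Tead2 was at 0.69, Amotl2 at 0.94 and Ctgf, below 0, at -0.21. In cells with 2500 to 5500 genes, which brings the genotypes closer in genes per cell, the differences were 2.64 for Cyr61, 2.35 for Vgll4, 1.53 for Tead2 and 1.29 for Amotl2. In the same cells Wwtr1 was at 0.54, Lats2 at 0.46, Ankrd1 at 0.21, Ctgf at 0.20 and Tead1 at 0.17, and Yap1 turned to -0.08. Yap1 was also at -0.14 without clusters 2 and 8 and at -0.16 with equal weight to shared clusters, where Lats2 was at -0.04.

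For the connective against the epithelial cells of Sox9Y440X/+ sacs, 9 of the 10 members passed the limit of 25% of cells in either class. Ctgf was higher by at least 1, against 12.9% of 6620 genes, and Vgll4 was lower by at least 1, against 24.9% of them. The other 8 members lay within 1 of 0, and the median over all 10 was 0.03, against -0.27 over all genes compared. With 1 Wild-type connective cell, the genotypes could not be compared in connective cells. In that cell 6 members were detected and Ctgf, Ankrd1, Amotl2 and Yap1 were not.

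**Figure D3:**
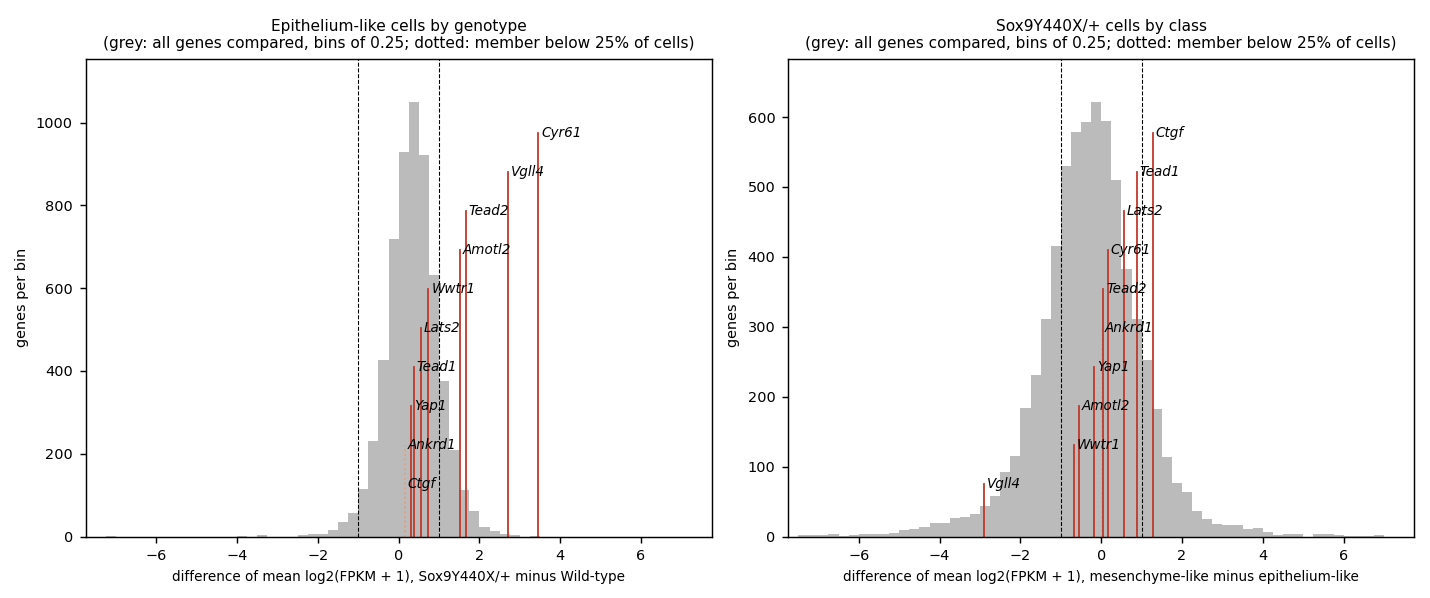
Differences of mean log2(FPKM + 1) for all genes compared (grey bars, genes per bin of 0.25) and for the 10 members (lines, whose heights only separate the names), for Sox9Y440X/+ minus Wild-type epithelium-like cells on the left and for mesenchyme-like minus epithelium-like Sox9Y440X/+ cells on the right; dashed lines mark -1 and 1. On the left the members run from 0.15 for Ctgf to 3.46 for Cyr61, and on the right from -2.89 for Vgll4 to 1.27 for Ctgf.

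The epithelium-like cells fell into 6 clusters, and the mix of clusters differed between the genotypes. Cluster 2 held 10 Sox9Y440X/+ cells and 1 Wild-type cell, and cluster 8 held 10 Wild-type cells alone. The median number of genes per cell was 4852 in cluster 2 and 2057.5 in cluster 8, and its part in the detection counts was not tested. Several members were found in most of the Sox9Y440X/+ cells of cluster 2. There Vgll4 was found in 10 of 10 cells with a median of 134 FPKM, Tead2 in 10 of 10 with a median of 46.98 FPKM, Wwtr1 in 9 of 10 with a median of 29.8 FPKM and Yap1 in 7 of 10. Vgll4 was also among the 10 leading genes of that cluster, although it took no part in the clustering. Without clusters 2 and 8 the Cyr61 difference was 3.08 and that of Vgll4 1.83, while Tead2 was at 0.96 and Wwtr1 at -0.26.

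Cyr61 was higher in Sox9Y440X/+ cells of clusters 3, 6 and 7 and lower in those of cluster 1. In cluster 3, which held 11 cells of each genotype and was led by Aldh1a1, the mean log2(FPKM + 1) of Cyr61 was 6.14 in Sox9Y440X/+ and 3.20 in Wild-type cells. In cluster 6, led by Spp1 and Oc90, it was 7.03 over 7 Sox9Y440X/+ cells and 2.57 over 23 Wild-type cells. In cluster 7 all 4 Sox9Y440X/+ cells had Cyr61, with a median of 640.5 FPKM, and all 3 Wild-type cells were listed at 0. The ionocyte-like cluster 1, led by proton pump genes and Foxi1, ran the other way, with Cyr61 in 1 of 5 Sox9Y440X/+ cells and 4 of 8 Wild-type cells and a difference of -2.38. Cells of 1 sample per genotype allow no test of whether these clusters differ.

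The difference of Vgll4 was above 0 in the 4 clusters with at least 3 cells of both genotypes. It was 2.39 in cluster 1, where 5 of 5 Sox9Y440X/+ and 4 of 8 Wild-type cells had it, 2.13 in cluster 3, 0.97 in cluster 6 and 0.32 in cluster 7. The last 2 values rest on single cells: without the highest Sox9Y440X/+ cell, at 602 FPKM in cluster 6 and 1.45 FPKM in cluster 7, the difference was -0.18 in cluster 6 and 0 in cluster 7. In the same setting it was 1.89 in cluster 1 and 1.85 in cluster 3. With equal weight to these 4 clusters it was 1.45, and that of Cyr61 was 3.39. Amotl2 was higher by 2.60 in cluster 3 and by 2.58 in cluster 7, had a difference of 0.71 in cluster 6 that turned to -0.04 without the highest Sox9Y440X/+ cell, and was at -0.86 in cluster 1. Tead2 was higher by 2.57 in cluster 3 but lower in cluster 7, at -2.53 over 4 and 3 cells, and with equal weight to the 4 clusters its difference was 0.36. Wwtr1 had a difference of -1.33 in cluster 3 and 1.08 in cluster 6, which were -1.57 and 0.43 without the highest Sox9Y440X/+ cell. With equal weights the Wwtr1 difference turned to -0.59. The Tead2 and Wwtr1 differences over all epithelium-like cells thus changed with the weight given to each cluster.

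**Figure D4:**
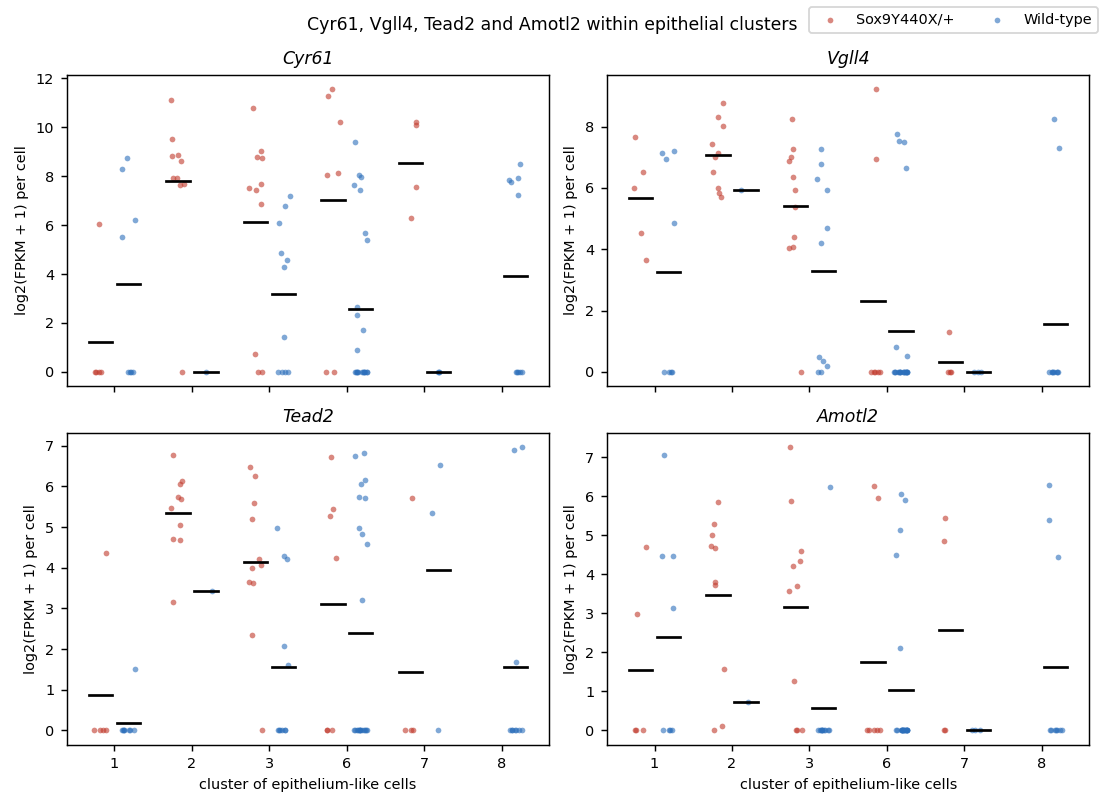
Log2(FPKM + 1) of Cyr61, Vgll4, Tead2 and Amotl2 per cell in the 6 clusters of epithelium-like cells, with Sox9Y440X/+ cells at the left and Wild-type cells at the right of each cluster; points are cells and black bars are means. Cyr61 is higher in Sox9Y440X/+ cells of clusters 3, 6 and 7 and lower in those of cluster 1, by -2.38.

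Within the connective cells, the members were found more often in cluster 4 than in cluster 5, which share Col3a1, Col1a2, Crym and Igfbp4 among their leading genes. Cyr61 was detected in 13 of 13 Sox9Y440X/+ cells of cluster 4 with a median of 182 FPKM and in 6 of 8 cells of cluster 5 with a median of 101 FPKM. Ctgf was detected in 7 of 13 cells of cluster 4 and 1 of 8 of cluster 5, and Wwtr1 in the same numbers of cells. Cluster 5 includes the cell with endothelium markers, in which Cyr61 was at 3.84, Tead2 at 26.5 and Lats2 at 1.53 FPKM and the other 7 members were listed at 0. The median number of genes was 4266 in cluster 4 and 2765 in cluster 5, and its part in these counts was not tested.

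Cells with at least 3 of the 4 targets Cyr61, Ctgf, Ankrd1 and Amotl2 numbered 10 of 37 Sox9Y440X/+ and 2 of 56 Wild-type epithelium-like cells and 8 of 21 Sox9Y440X/+ mesenchyme-like cells. A coactivator and a TEAD factor, Tead1 or Tead2, were found together in 18 of 37 Sox9Y440X/+ and 17 of 56 Wild-type epithelium-like cells and in 8 of 21 Sox9Y440X/+ mesenchyme-like cells. The median cell had 5 of the 10 members in Sox9Y440X/+ epithelium, 2 in Wild-type epithelium and 5 in Sox9Y440X/+ mesenchyme. The members were chosen on the genotype contrast, so these tallies carry no weight of their own, and none was made for other genes. The median number of genes per cell also differed, at 4506 in Sox9Y440X/+ and 3241.5 in Wild-type epithelium-like cells, and its part was not tested. In the epithelium, cells with and without Cyr61 had a coactivator in close shares: 15 of 27 Sox9Y440X/+ cells with Cyr61 and 5 of 10 without it had Yap1 or Wwtr1, and 13 of 26 Wild-type cells with Cyr61 and 14 of 30 without it did.

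Co-variation with Cyr61 was described by Spearman's rho across the cells of 1 group. The cells of a group share a genotype, a class and a protocol, they differ in genes per cell, and many values are 0, so no p is given and values below 0.3 are not read as a relation. In Sox9Y440X/+ epithelium-like cells, 2 of the other 9 members reached a rho of 0.3, Ctgf with 0.47 and Amotl2 with 0.34, against 2.90% of the 5549 genes found in 25% or more of these cells. When only the 27 cells with Cyr61 were used, Ctgf was at 0.39 and Amotl2, at 0.25, no longer reached the limit. Ctgf, itself below that limit of detection, was found in 7 of the 27 cells with Cyr61 and in 0 of the 10 without it. The median Cyr61 level was 1094 FPKM in the cells with Ctgf and 194 FPKM in those without. Amotl2 was found in 18 of the 27 cells with Cyr61 and in 4 of the 10 without it. The remaining members lay between -0.17 for Vgll4 and 0.08 for Lats2, and Vgll4 was found in 19 of 27 cells with and 9 of 10 without Cyr61.

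In Wild-type epithelium-like cells no member reached 0.3, against 1.54% of 4622 genes, and the highest was Amotl2 with 0.22. Those genes were detected in 25% or more of the Wild-type cells. Of the members compared with Cyr61, Vgll4, Tead2 and Wwtr1 alone passed that limit, so the share does not cover the others. Amotl2 was detected in 23.2% and Ctgf in 14.3% of these cells. Ctgf had a rho of 0.06 and was found in 5 of 26 cells with and 3 of 30 cells without Cyr61. That the rho of Ctgf differed between the genotypes was not tested.

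In the 21 Sox9Y440X/+ mesenchyme-like cells, 4 members reached 0.3, against 15.2% of 4577 genes. A rho of 0.3 is reached more easily with fewer cells, so this share cannot be set against those of the larger epithelial groups. The 4 members were Ctgf with 0.75, Amotl2 with 0.43, Tead1 with 0.42 and Ankrd1 with 0.33. The value of Ankrd1 came from a single positive cell, below the detection limit set for the genes compared. Ctgf was found in 8 of the 19 cells with Cyr61 and in 0 of the 2 without, and the median Cyr61 level was 345 FPKM in cells with Ctgf and 85.3 FPKM in those without. Given the number of genes per cell, the partial rho was 0.72 for Ctgf, 0.35 for Amotl2 and 0.34 for Tead1, and Ankrd1, at 0.25, no longer reached the limit. Without the cell with endothelium markers the values were 0.74 for Ctgf, 0.39 for Amotl2, 0.37 for Tead1 and 0.34 for Ankrd1, and Tead2 passed the limit at 0.33. Cyr61 itself had a rho of 0.30 with the number of genes per cell in these cells, against -0.10 in Sox9Y440X/+ and 0.07 in Wild-type epithelium-like cells.

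**Figure D5:**
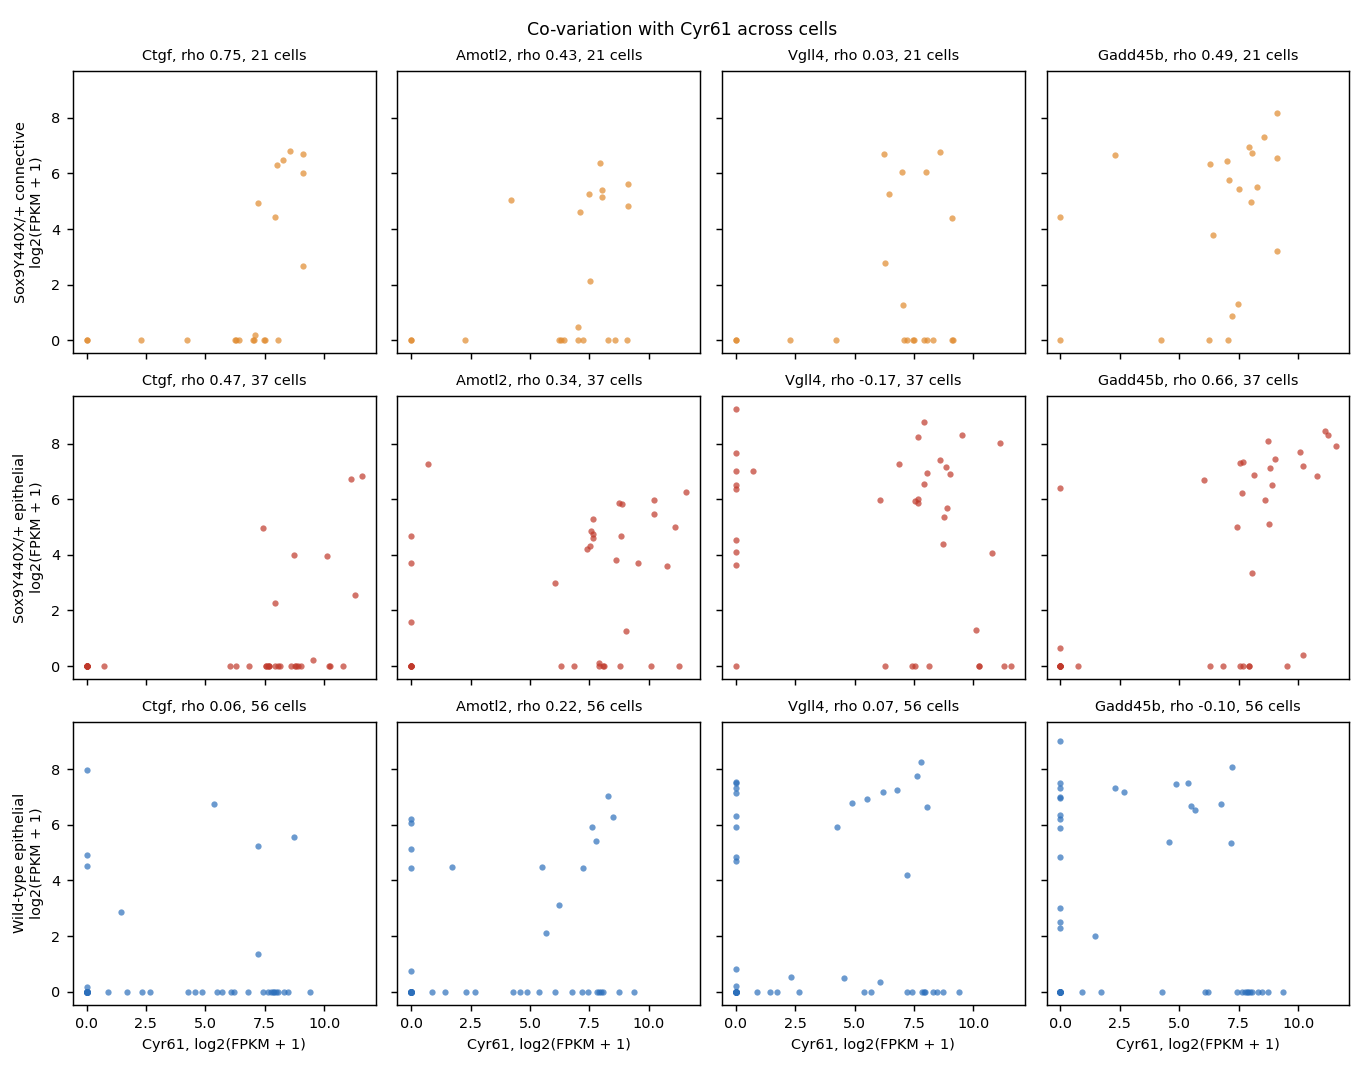
Log2(FPKM + 1) of Ctgf, Amotl2, Vgll4 and Gadd45b against that of Cyr61, 1 point per cell, in Sox9Y440X/+ mesenchyme-like (connective), Sox9Y440X/+ epithelium-like and Wild-type epithelium-like cells. Ctgf appears at high Cyr61 in the Sox9Y440X/+ groups, with a rho of 0.75 and 0.47. Gadd45b is plotted because its rho of 0.66 was the highest of 4215 candidate genes, defined below, in the Sox9Y440X/+ epithelium. In the Wild-type epithelium Gadd45b was at -0.10.

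Genes were ranked by rho with Cyr61 among 4215 candidates, chosen from those that passed the limit on detection in epithelium-like cells of both genotypes. The 8 candidates most like Cyr61 across the 37 Sox9Y440X/+ epithelium-like cells were Gadd45b (rho 0.66), Atf3 (0.54), Ppp1r9a (0.53), Tsc22d1 (0.53), Gadd45g (0.52), Ier3 (0.50), Rbm42 (0.49) and Flrt3 (0.48). Over the 56 Wild-type epithelium-like cells the same genes lay between -0.10 and 0.18. They were picked for a high rho in the Sox9Y440X/+ cells, so lower values elsewhere come with the choice and show no difference between the genotypes. Of the same candidates, the 3 highest in the Wild-type cells were Clns1a, Klhl9 and Trmt112, named after their values were seen. These 3 were at 0.12, -0.10 and 0.09 in Sox9Y440X/+ cells and at 0.48, 0.47 and 0.43 in Wild-type cells. Gadd45b, Gadd45g, Atf3 and Ier3 are stress-inducible or immediate-early genes. In the Sox9Y440X/+ mesenchyme-like cells Gadd45b was at 0.49, Tsc22d1 at 0.34 and Gadd45g at 0.33, and the others were between 0.02 and 0.13. Of the immediate-early and dissociation genes listed, 9 of 23 detected reached 0.3 with Cyr61 in Sox9Y440X/+ epithelium, 0 of 22 in Wild-type epithelium and 7 of 20 in Sox9Y440X/+ mesenchyme, against the 2.90%, 1.54% and 15.2% of all genes given above. In the epithelium 5 of 24 detected genes of that list were higher in Sox9Y440X/+ cells by at least 1 and 1 was lower, with a median of 0.68, against 13.5% higher, 2.20% lower and a median of 0.36 over all genes compared. Dusp1, a phosphatase of activated MAP kinases, averaged 533 FPKM in Sox9Y440X/+ and 173 FPKM in Wild-type cells. Hbegf, an EGF family ligand, averaged 56.9 FPKM in Sox9Y440X/+ and 13.01 FPKM in Wild-type cells, and Gadd45g 73.5 FPKM in Sox9Y440X/+ and 29.1 FPKM in Wild-type cells. Dusp1, Hbegf and Gadd45g had the largest differences of that list. Socs3, the gene lower by at least 1, averaged 7.13 FPKM in Sox9Y440X/+ and 31.6 FPKM in Wild-type cells. Fos, with a log2 difference of 0.83, averaged 435 and 464 FPKM, and Jun, at -0.15, averaged 79.4 and 90.9 FPKM. Socs3, Fos and Jun were named after their values were seen. The part of dissociation or stress in the Cyr61 values was not tested.

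Other genes of the pathway were taken from lists, some of which also hold members. Of 22 listed YAP and TEAD targets, 11 passed the limit of 25% of cells in either genotype. Cyr61, Amotl2 and Gadd45b (1.21) were higher in Sox9Y440X/+ cells by at least 1 and Ccdc80 was lower, with a mean of 25.3 FPKM in Sox9Y440X/+ and 90.9 FPKM in Wild-type cells and a difference of -1.71. Over all genes compared, 13.5% were higher and 2.20% lower. The median over the 11 was 0.72, against 0.36 over all genes. The 11 include the members Cyr61, Amotl2 and Lats2, and the members were chosen on this contrast. The count and the median therefore carry no weight of their own. Gadd45b is also counted among the immediate-early and dissociation genes. Of the TEAD and vestigial-like list 4 of 8 were detected, and the non-member Tead3 had a difference of 0.36. Of 17 Hippo kinases and scaffolds 8 were detected and 0 reached a difference of 1 in either direction, with a median of 0.63. Nf2, which encodes the scaffold merlin, had the largest of these, at 0.96, with detection in 12 of 37 Sox9Y440X/+ and 4 of 56 Wild-type cells, followed by Mob1a at 0.80 and Stk4 (the kinase MST1) at 0.80. Among the 37 Sox9Y440X/+ cells Mob1a and Stk4 had a rho with Cyr61 of -0.35 and -0.41, against -0.04 and 0.13 among the 56 Wild-type cells. The share of all genes with a rho as low was not computed, and whether the values differ between the genotypes was not tested.

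The upstream cadherin, polarity and junction list had 10 genes detected, 0 past 1, and a median of 0.41, with Ctnna1 at 0.83, Limd1 at 0.83 and Ajuba, a LIM protein that binds LATS kinases, at -0.78. Of the YAP, TAZ and binding inhibitor list 11 genes were detected with a median of 0.39, and Amotl2 alone passed 1, while Ywhag and Ptpn14 were at 0.77 and 0.72. Actin and SRF genes, which respond to the same mechanical inputs, had 4 of 14 detected genes higher by at least 1 in Sox9Y440X/+ epithelium, namely Flna (2.08), Mkl2 (1.51), Tpm4 (1.29) and Vcl, and 0 lower, against 13.5% and 2.20% of all genes. In the Sox9Y440X/+ connective cells, against the Sox9Y440X/+ epithelium, 7 of 16 of them were higher and 3 lower, against 12.9% and 24.9% of all genes. Of the immediate-early and dissociation genes there, 2 of 26 were higher and 12 lower, with a median of -0.95, against -0.27 over all genes, while Cyr61 was at 0.17. Of the junction list 0 of 12 were higher and 3 lower. Of the CCN family Ctgf and Wisp1 were higher, and of the targets Ctgf and Tgfb2 were higher and Asap1 and F3 lower. Vcl, Wisp1, Tgfb2, Asap1 and F3 were named after their values were seen.

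Sox9 was higher in Sox9Y440X/+ epithelium-like cells, with a mean of 16.6 FPKM against 4.11 FPKM in Wild-type cells and a difference of 2.01, and FPKM per gene does not tell the alleles apart, so this does not check the genotype labels. Its rho with Cyr61 was -0.17 over the 37 Sox9Y440X/+ and -0.34 over the 56 Wild-type epithelium-like cells. Xist, transcribed from the inactive X chromosome of female cells, was detected in 0 of 37 Sox9Y440X/+ and in 34 of 56 Wild-type epithelium-like cells. Over all epithelium-like cells, sex and genotype therefore cannot be told apart. Set against the 22 Wild-type cells in which Xist was not detected, the differences were 3.19 for Cyr61, 2.87 for Vgll4, 1.98 for Tead2, 1.97 for Amotl2 and -0.11 for Ctgf. These 22 cells may include female cells in which Xist was missed, so they are not known to be matched for sex.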

How the data were processed

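Per the labels, 120 single cells of mouse endolymphatic sac were sequenced by Smart-seq2. The authors deposited 1 table of FPKM per gene and cell. Cufflinks, HTSeq, HISAT2 and SAMtools 0.1.18 are named without roles in the submitters' processing notes, as is the build mm10. No counts were given, so depth is unknown. Entries sharing a symbol were summed. The 5 cells under 1000 genes were left out; in them Amotl2 alone was detected, in 1 cell at 17.0 FPKM.

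Cells were clustered (Ward linkage, 15 principal components of the 1500 most variable symbols, 8 clusters) without the members and the pathway genes, and named from marker lists. Cells are not replicates, so no test was made. Genes named beside the members were, per list, up to 3 non-members with the largest genotype difference, the 8 candidates most like Cyr61, Sox9 and Xist. The members and lists were chosen with earlier results of these data known. Doublets were not called. Tools were Python 3.11.15, numpy 2.4.6, pandas 2.3.3 and scipy 1.17.1. Promoter windows came from RefSeq.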

Additional observations from a re-analysis of the deposited data

How the results depend on the processing

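No paired analysis was possible because numbers in the labels only name cells, and nothing was tested. Leaving out the cell with endothelium markers, clusters 2 and 8 or the highest cell of a cluster, medians at other limits of detection, and the genome-wide shares with Wild-type cells without Xist or scaled to equal totals were chosen after seeing the data. Of 6 member differences of at least 1, recomputed 90 times under other settings, 76 values were within 1.5 times the reported one, 14 were not and 0 had the opposite sign. With 5 clusters, 12 clusters, 3000 variable genes or clustering on the members and lists too, 0 cells changed class. The differences could not move in those settings, and their values are counted among the 76. A pseudocount of 10, which compresses low values by construction, left 2 members higher in the epithelium. In connective cells the members higher numbered 2 in cells with at least 2000 genes, with 2500 to 5500 genes and at a pseudocount of 0.1, 0 at 10 and 3 by the ratio of mean FPKM, and those lower numbered 3 at 0.1 and by that ratio. Among cells with Cyr61, 1 member, Ctgf, co-varied with it in Sox9Y440X/+ epithelium. Over all genes, the percent higher was 8.02 with detection in at least 10% of cells and 1.33 at a pseudocount of 10, and the percent lower was 1.38 and 0.403, with 6.08 in cells with 2500 to 5500 genes and 6.95 against Wild-type cells without Xist. The median of all genes was 0.22, 0.12, 0.23 and 0.18 in these settings. List medians at a pseudocount of 10 were 0.21 for Hippo kinases, 0.11 for junction adaptors, 0.41 for TEAD partners, 0.30 for targets, 0.26 for immediate-early and 0.33 for actin genes. With detection in 10% of cells they were 0.20 for Hippo kinases and 1.80 for the CCN family. The cause of moves at settings other than the pseudocount was not tested. Unknown depth means that a value of 0 does not show absence.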
